A study of Mus musculus with 5 samples.

Results

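The genes described here are 9 genes of the canonical Wnt pathway: the transcription factor genes Tcf7, Tcf7l1, Tcf7l2 and Lef1, the co-receptor genes Lrp5 and Lrp6, and Ctnnb1, Apc and Axin2. They were chosen by name, and all 9 were found in the RefSeq gene table for mm10 (GRCm38.p6), among 21779 protein-coding genes. The measurement is the position of CTCF peaks, the intervals in which chromatin bound by CTCF was recovered, in the gene body and 100 kb on each side of it. These 9 windows held 58 of the 22756 peaks listed for the study, and no peak lay in more than 1 of them.

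Chromatin immunoprecipitation with a CTCF antibody was carried out in NIH3T3, a line of mouse embryonic fibroblasts, here carrying H2B-mCherry, the rtTA3G transactivator and CDX2 under a TRE3G promoter that doxycycline switches on. CDX2 is a homeobox factor of the intestine and the trophectoderm. The study comprised 2 CTCF libraries from cells treated with doxycycline for 6 h, 2 CTCF libraries from cells without doxycycline and 1 input library without doxycycline, so the transgenes were present in every group. All peaks came from 1 list in which the authors had merged both conditions, and whether CDX2 induction changed CTCF at these genes was therefore not tested. The list gives positions only, so reads per peak and sequencing depth are unknown and there is no spread between replicates. Peak widths are those of the merged intervals, and whether merging widened any of them could not be tested. Intervals given with densities are exact 95% Poisson intervals and cover the counting of peaks alone.

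In canonical Wnt signalling, a Wnt ligand joins a Frizzled receptor to the co-receptors LRP5 or LRP6. This stops a destruction complex, held together by APC and AXIN proteins, from marking β-catenin, the product of Ctnnb1, for degradation. β-catenin then enters the nucleus and acts through TCF/LEF proteins, which sit on target genes such as Axin2, itself a negative regulator of the pathway. CTCF is a zinc finger protein that halts cohesin and marks the anchors of chromatin loops and the borders of domains.

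CTCF peaks lay within 1 kb of listed transcription starts of 3 of these genes, Tcf7, Tcf7l1 and Axin2, and covered a start only at Axin2. Listed starts were taken up after the data were seen, and the planned rule for gene ends is given further below. Promoter windows in RefSeq (GRCm38.p6), from 250 bases before to 50 bases after a start, were found for 6 of the 9 genes: Tcf7, Tcf7l1, Tcf7l2, Lef1, Ctnnb1 and Axin2. Of these 6, the 3 named had a peak midpoint within 1 kb of a listed start, against 8.22% of the 17492 protein-coding genes with such a window. Only at Tcf7 and Axin2 did a peak reach into the window itself. Those windows are printed below 5′ to 3′ on the gene's own strand, because they show which bases around the listed starts the peaks covered. Capitals mark the bases inside a CTCF peak. The Axin2 window is chr11:108920099-108920398 on the plus strand, and the Tcf7 windows are chr11:52282965-52283264 and chr11:52282546-52282845 on the minus strand.
Axin2: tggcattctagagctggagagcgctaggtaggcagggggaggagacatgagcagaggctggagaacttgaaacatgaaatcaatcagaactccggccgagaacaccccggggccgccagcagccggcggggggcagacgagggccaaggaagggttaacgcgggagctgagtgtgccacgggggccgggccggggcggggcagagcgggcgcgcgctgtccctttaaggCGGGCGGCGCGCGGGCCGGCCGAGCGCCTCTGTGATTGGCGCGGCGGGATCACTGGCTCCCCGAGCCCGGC
Tcf7 first start: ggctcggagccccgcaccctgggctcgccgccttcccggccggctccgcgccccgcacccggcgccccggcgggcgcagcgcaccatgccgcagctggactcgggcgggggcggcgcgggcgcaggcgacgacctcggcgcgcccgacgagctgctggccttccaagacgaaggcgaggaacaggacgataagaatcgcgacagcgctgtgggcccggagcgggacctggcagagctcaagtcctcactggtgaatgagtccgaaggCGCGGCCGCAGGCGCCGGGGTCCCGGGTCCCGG
Tcf7 second start: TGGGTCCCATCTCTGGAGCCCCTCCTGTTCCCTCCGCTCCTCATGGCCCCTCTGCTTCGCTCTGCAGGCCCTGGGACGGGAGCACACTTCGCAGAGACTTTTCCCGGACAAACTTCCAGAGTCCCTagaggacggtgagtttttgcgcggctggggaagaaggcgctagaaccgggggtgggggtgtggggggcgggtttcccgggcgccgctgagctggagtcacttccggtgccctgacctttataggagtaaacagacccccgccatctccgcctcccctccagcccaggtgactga

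At Axin2 the peak covered the last 71 bases of the window, the listed start at 108920349 among them. At Tcf7 a single peak covered the last 33 bases of the window of the first start and the first 126 bases of the window of the second, so it lay between both starts. Its midpoint was 155.5 bp downstream of the first start and 263.5 bp upstream of the second. The Axin2 window was 70% G and C, and the Tcf7 windows 76.3% and 64.3%. Letters of known binding motifs were searched on both strands of all 12 promoter windows of these genes, with overlapping matches allowed: AGGNGGC from the CTCF motif, CTTTGNT from the TCF/LEF motif and CNATAAA from the CDX motif. None of the 3 words occurred within the capitals above. Outside them, AGGNGGC occurred at bases 27 to 33 of the window of the first Tcf7 start and CNATAAA at bases 243 to 249 of the second, both on the opposite strand and counted from the 5′ end of the window. AGGNGGC occurred in 29.4% of 32851 RefSeq promoter windows, CTTTGNT in 18.6% and CNATAAA in 10.9%. The window of the first Tcf7l2 start held AGGNGGC at 2 places although the nearest peak was 108.9 kb away. The only CTTTGNT in the 12 windows lay at the second listed Tcf7l2 start, 13.8 kb from the nearest peak. A match of these letters is not evidence of binding, and a window without them may hold other forms of a motif.

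The 4 TCF/LEF genes together held 34 peaks in their windows, and each had at least 2 in its body. Among protein-coding genes of similar length, 24.1% had as many body peaks as Tcf7l2 or more, and 30.3% as many as Lef1. For Tcf7 and Tcf7l1 these shares were 5.4% and 5.48%. The 4 genes differed in where the peaks lay. Tcf7 and Tcf7l1 had peaks at their 5′ end and on both sides of the gene, whereas the 5′ flanks of Tcf7l2 and Lef1 and the first part of their bodies held none. By the fixed gene-end rule, a peak midpoint within 1 kb of either end in the gene table, Tcf7 and Tcf7l1 were the 2 of the 9 genes that had an end peak, against 12.0% of protein-coding genes. Within 500 bp of an end 0 of the 9 had a peak, against 7.82% of protein-coding genes. Axin2 was missed by that rule because the gene table places its end upstream of the listed start, 2.6 kb from the peak. The table also places the 5′ end of Tcf7, at 52283383, upstream of its first listed start at 52283014. The midpoint of the Tcf7 peak thus lay 0.5 kb inside the gene, and the bases it covered need not be promoter bases.

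**Figure D1:**
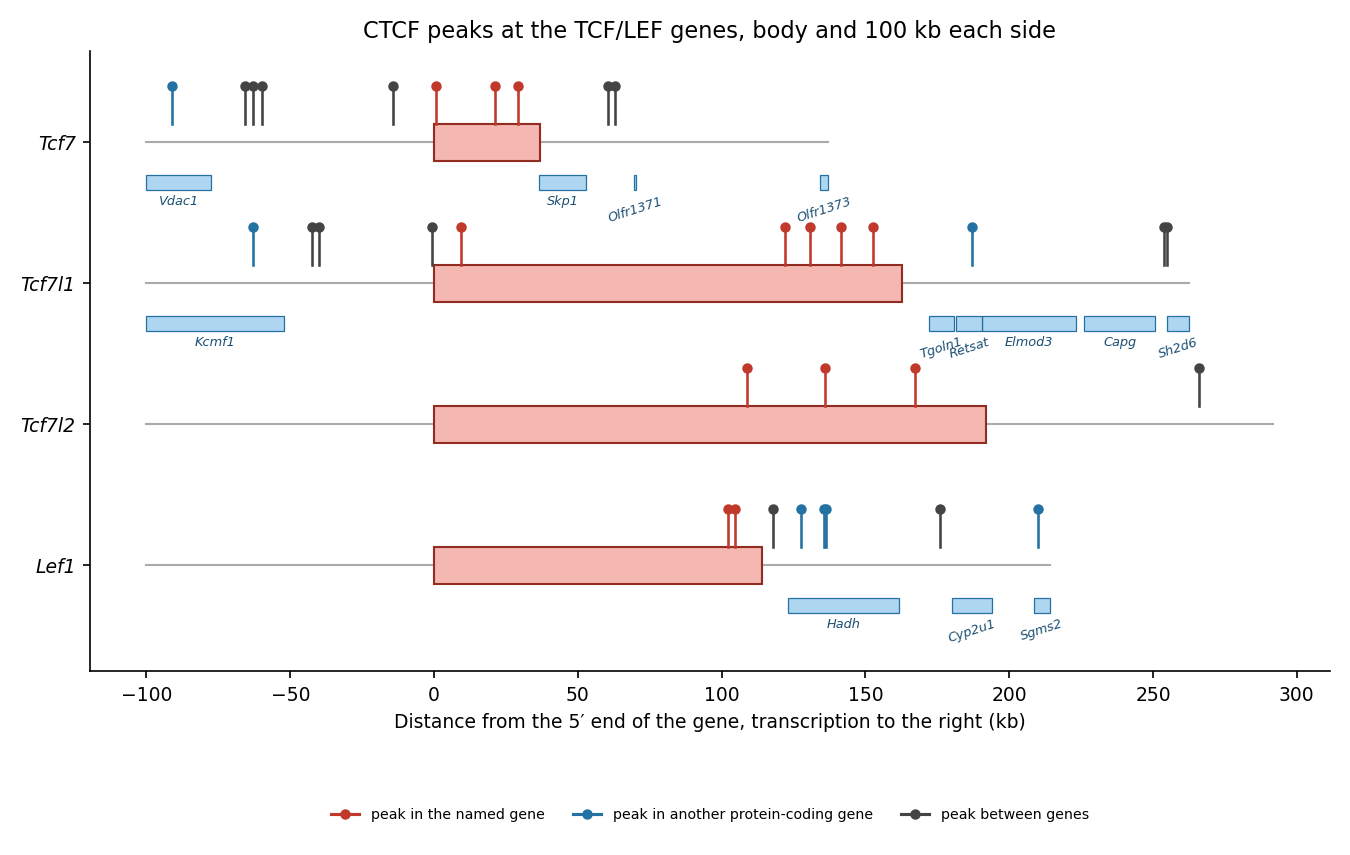
CTCF peaks (vertical lines with dots) at the 4 TCF/LEF genes, drawn so that transcription runs to the right, with distance from the 5′ end of the gene in kb on the horizontal axis. Pink boxes are the gene bodies and blue boxes the other protein-coding genes within 100 kb. Tcf7 had 10 peaks, Tcf7l1 12, Tcf7l2 4 and Lef1 8, and the Tcf7l2 and Lef1 maps are empty from 100 kb before the gene to 108.9 kb and 102.1 kb into it.

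Tcf7 encodes TCF-1, a factor best known from T cells. The gene spans 36.9 kb on chromosome 11 (52246527 to 52283383) and runs along the minus strand. Its window held 10 peaks: 5 upstream, 3 in the body and 2 downstream. The body peaks lay 0.2, 20.9 and 28.9 kb after the first listed start, and the last of these, 469 bp wide at 52253899 to 52254367, was wider than most, since 5.33% of all peaks were at least as wide. Upstream, a peak lay 14.5 kb before the start, and 3 others lay close together at 60.3, 63.4 and 65.9 kb, with gaps of 2812 and 2234 bp between them. The farthest upstream peak was inside Vdac1, the gene of a mitochondrial outer membrane channel. Both downstream peaks lay between genes, beyond Skp1, which encodes a ubiquitin ligase adaptor and overlaps the 3′ end of Tcf7 by 332 bp. Skp1 itself held no peak in its body. Of 2316 protein-coding genes with 80 to 125% of the length of Tcf7, 5.4% held as many as 3 peaks in the body, and 5.39% of all protein-coding genes did.

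Tcf7l1 encodes TCF-3, mostly a repressor among these factors. It spans 162.7 kb of the minus strand of chromosome 6 (72626371 to 72789045), and its window held 12 peaks: 4 upstream, 5 in the body and 3 downstream. A peak of 271 bp at 72789477 to 72789747 lay 567 bp upstream of the start. The body held 5 peaks, a number reached by 1.30% of all protein-coding genes and by 5.48% of the 767 of similar length. They were unevenly placed. After a peak 9.5 kb into the gene, the next 112187 bp had none, and the other 4 followed at 121.9, 130.9, 141.5 and 152.7 kb from the start, with gaps of 8731 to 10851 bp between neighbours. Those at 121.9 and 130.9 kb also lay in the gene Gm31391, and that at 152.7 kb also in Gm15401. Upstream, a pair at 40 and 42.4 kb lay between genes, and a peak 62.9 kb away lay in Kcmf1, which encodes a ubiquitin ligase. Downstream, a peak lay in Retsat, the retinol saturase gene, and a pair with a gap of 789 bp lay by Sh2d6, 1 of the pair within 1 kb of its end. Elmod3, Capg and Tgoln1, also within 100 kb, held no peak.

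Tcf7l2 encodes TCF-4, the main partner of β-catenin in intestinal epithelium. At 191.9 kb on chromosome 19 (55741797 to 55933659) it was the longest of the 9 genes, and its window held 4 peaks. The count was 8 with flanks of 200 kb and 2 with only peaks of median width or more. Its 3 body peaks lay 108.9, 136.1 and 167.3 kb after the first start, in the 3′ part of the gene, and the fourth lay between genes 74 kb beyond the 3′ end. The middle peak was 455 bp wide. The first start lay in a stretch of 220 kb without a peak (55630226 to 55850564), reaching 112 kb upstream. Of protein-coding gene ends, 34% lay in peak-free stretches at least as long. No other protein-coding gene lay within 100 kb of Tcf7l2. A second listed start, at 55895321 inside the gene, lay between the second and the third body peaks, 17452 bp after the midpoint of the former and 13776 bp before that of the latter.

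Lef1 encodes the lymphoid enhancer factor. It spans 114.1 kb of the plus strand of chromosome 3 (131110297 to 131224357), and its 8 peaks lay in the last part of the gene and beyond it. The start lay in a stretch of 324 kb without a peak (130888215 to 131212272), the longest around the first start of any TCF/LEF gene, although 27.3% of protein-coding gene ends lay in stretches at least that long. The 4 listed starts of Lef1 all fell in this stretch, the last of them 56.1 kb before the nearest peak. The body peaks lay 102.1 and 104.8 kb after the first start. Another peak followed 3.9 kb beyond the 3′ end, and 3 more lay in the neighbouring Hadh, a gene of mitochondrial fatty acid oxidation, of which 2 were 228 bp apart. The remaining peaks were 1 between genes and 1 in Sgms2, a sphingomyelin synthase gene. Without the bodies of other protein-coding genes, an alternative added after the peaks were seen, Lef1 had 4 peaks.

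Per length, the order of the paralogs was Tcf7, Tcf7l1, Lef1 and Tcf7l2, but neighbours in that order did not differ beyond counting error. Tcf7 had 4.22 peaks per 100 kb of window (2.02 to 7.76), Tcf7l1 3.31 (1.71 to 5.78), Lef1 2.55 (1.10 to 5.02) and Tcf7l2 1.02 (0.278 to 2.61). The median of all protein-coding genes was 1.42, with quartiles of 0.46 and 2.76. It differed between chromosomes: 3.21 for the 1602 protein-coding genes of chromosome 11, where Tcf7 lies, 1.24 on chromosome 6 (Tcf7l1), 1.38 on chromosome 3 (Lef1) and 2.71 on chromosome 19 (Tcf7l2). Tcf7, Tcf7l1 and Lef1 were thus above the median of their own chromosome and Tcf7l2 below it, and the part of the chromosome in the contrasts below was not tested. Pairs were compared with the exact two-sided binomial test on the counts given the window lengths, with Benjamini-Hochberg adjustment over 7 pairs, the 6 pairs of TCF/LEF genes and Lrp5 with Lrp6. No TCF/LEF pair passed 0.05, and 2 of the 6 had an unadjusted exact p under 0.05. The widest contrast was Tcf7 against Tcf7l2, a density ratio of 4.14 (95% interval 1.19 to 18.1, exact p = 0.0123, adjusted exact p = 0.0858), followed by Tcf7l1 against Tcf7l2 at 3.24 (0.982 to 13.8, exact p = 0.0429, adjusted exact p = 0.15). With the bodies of other protein-coding genes left out, the alternative added after the peaks were seen, both pairs had an adjusted exact p of 0.0323. With flanks of 50 or 200 kb, wide peaks only, close peaks merged or bodies alone, 0 of the 6 passed, and all pairs were chosen with peak counts of these genes known. In the gene bodies alone the ratio of Tcf7 to Tcf7l2 was 5.21 (0.697 to 38.9, adjusted exact p = 0.2). The test and the Poisson intervals take peaks as independent, and whether neighbouring peaks are so was not tested. Some lay close together, such as 2 peaks 228 bp apart in the Lef1 window. Where peaks cluster, these p-values are lower limits and the intervals too narrow.

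**Figure D2:**
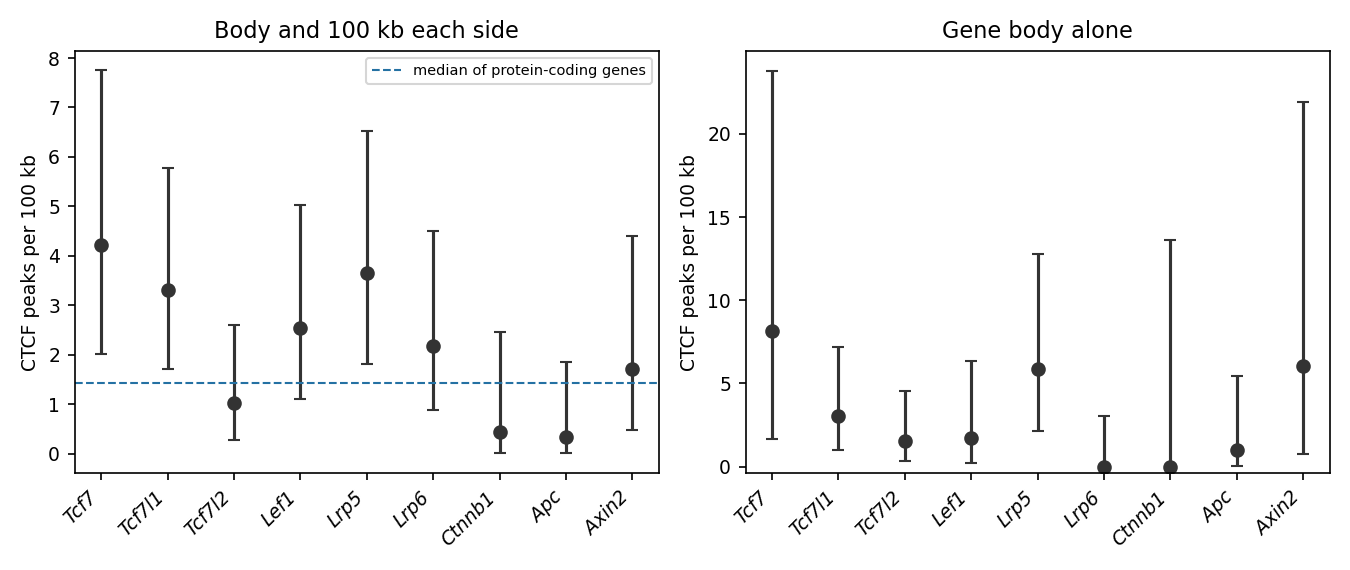
CTCF peaks per 100 kb (vertical axis) for each of the 9 genes, in the body and 100 kb each side (left) and in the body alone (right). Dots are the measured density and bars exact 95% Poisson intervals, and the dashed line in the left panel, at 1.42, is the median of protein-coding genes for the same window. The intervals of all 4 TCF/LEF genes overlap in both panels. Those of Lrp5, at 5.90 in the body, and Lrp6, at 0, also overlap in both.

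Lrp5 carried peaks along its whole body and Lrp6 carried none in its body. Both encode single-pass membrane proteins that serve as Wnt co-receptors. Lrp5 lies on chromosome 19 (3584825 to 3686585) and Lrp6 on chromosome 6 (134446476 to 134566913), with similar lengths of 101.8 and 120.4 kb. Positions at Lrp5, Lrp6 and Apc are given from the low-coordinate end, and strand was not used for them.

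The Lrp5 window held 11 peaks: 1 on the low side, 6 in the body and 4 on the high side. The body peaks lay 1.9, 3.1, 34.8, 39.0, 66.6 and 88.5 kb from the low end. With a peak 3.3 kb outside the gene, 3 peaks thus lay around the low end, and the 2 inside were 791 bp apart. None fell within 1 kb of an end, but that at 1.9 kb did within 2.5 kb, as a peak did at 3 of the 9 genes and at 21.2% of protein-coding genes. The peak at 39.0 kb (3623469 to 3624240) was 772 bp wide, the widest of all 58, and 0.554% of all peaks were at least as wide. On the high side, a peak of 497 bp lay in the non-coding gene Gm36608, a pair 736 bp apart lay in the non-coding Gm36787, and the last lay in Kmt5b, a histone H4 methyltransferase gene. The nearest protein-coding neighbour, Ppp6r3, 8.79 kb away, held none. Of all protein-coding genes 0.735% had 6 or more peaks in the body, and of the 1278 of similar length 1.64% did.

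The Lrp6 window held 7 peaks, all of them in the flanks: 2 on the low side, 56.8 and 43.4 kb from the low end, and 5 on the high side between 40.6 and 92.6 kb from the high end. The gene sat inside a peak-free stretch of 204 kb (134403242 to 134607383), and 35.9% of protein-coding gene ends lay in stretches at least as long. A body without a peak was common at this length, since 41.6% of the 1089 protein-coding genes of similar length had none. Of the 7 peaks, 5 lay in bodies of other protein-coding genes: 1 in Bcl2l14 of the BCL2 family, 2 in Mansc1 and 2 in Borcs5, which encodes a subunit of a complex that positions lysosomes. The other 2 lay in the non-coding genes 4933406J09Rik and Gm38910.

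In the whole windows, the co-receptor genes did not differ beyond counting error. Lrp5 had 3.65 peaks per 100 kb (1.82 to 6.52; chromosome median 2.71) and Lrp6 2.18 (0.878 to 4.50; chromosome median 1.24), a ratio of 1.67 (0.591 to 5.08, adjusted exact p = 0.488). In the bodies alone, Lrp5 had 5.90 per 100 kb (2.16 to 12.8) and Lrp6 0, which allows up to 3.06. This contrast had an exact p of 0.00923 and an adjusted exact p of 0.0646, and the lower bound of the density ratio was 1.39. With the bodies of other protein-coding genes left out of the windows, again a choice made after the peaks were seen, the difference was 4.62 peaks per 100 kb and passed (adjusted exact p = 0.0323). Since the pair was proposed with peak counts of these genes known, these p-values describe the contrast and are not independent evidence of it. Lrp5 and Lrp6 lie on different chromosomes with different medians, and the part of the chromosome in each of these contrasts was not tested.

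**Figure D3:**
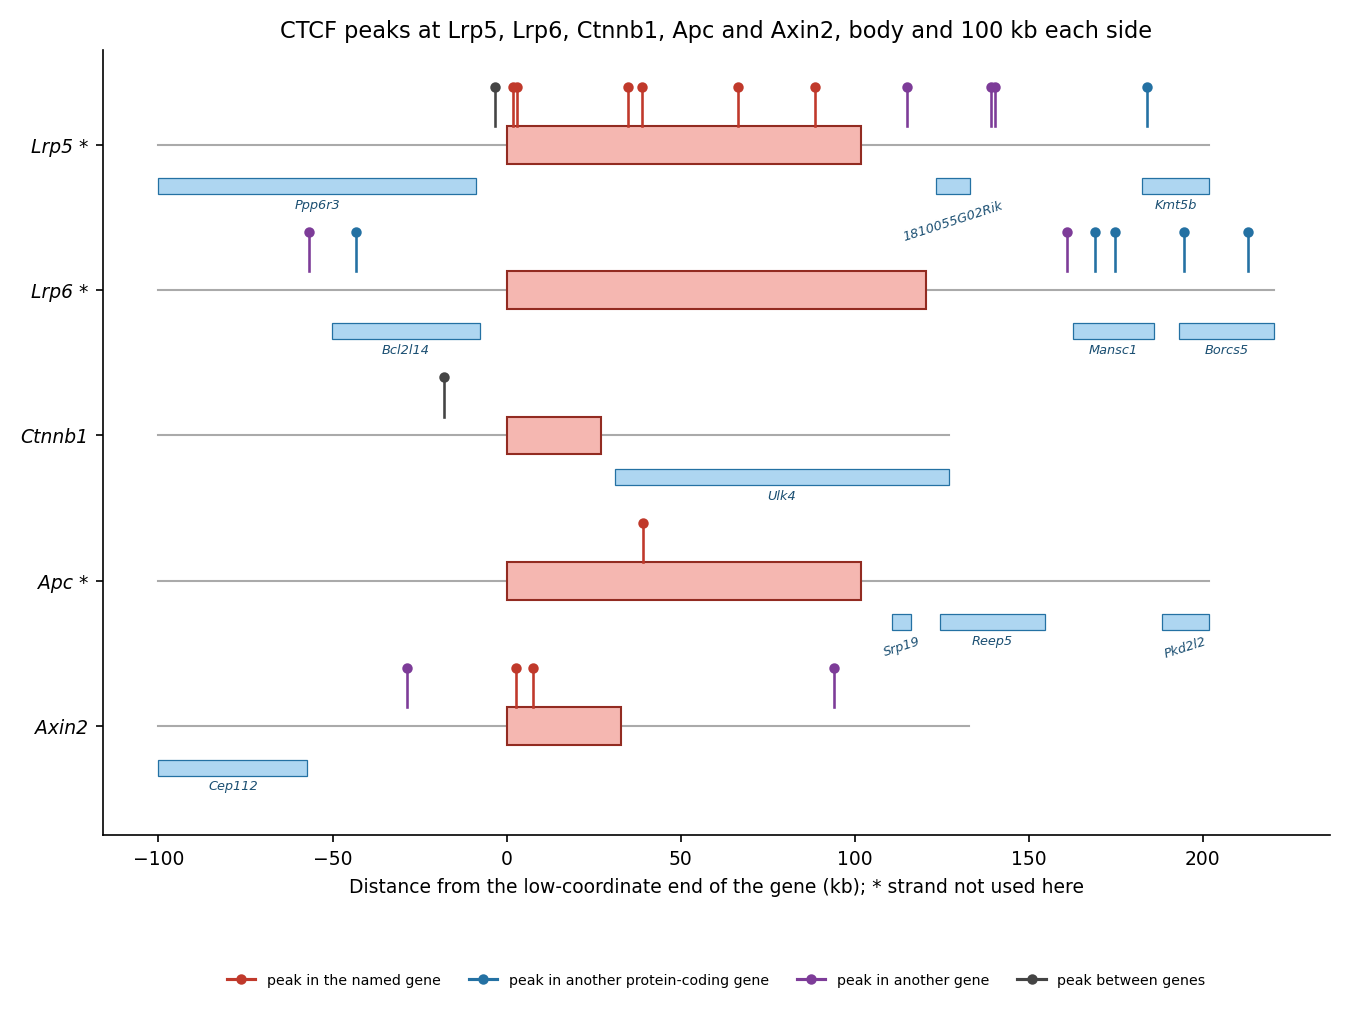
CTCF peaks (vertical lines with dots) at Lrp5, Lrp6, Ctnnb1, Apc and Axin2, with distance from the low-coordinate end of each gene in kb on the horizontal axis. Pink boxes are the gene bodies and blue boxes other protein-coding genes within 100 kb, and an asterisk marks genes for which strand was not used. Lrp5 had 6 peaks in the body and Lrp6 0, and Ctnnb1 and Apc had 1 peak each in the whole window.

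The genes of β-catenin and of APC were the sparsest of the 9, with 1 peak each. Ctnnb1, 27.1 kb on chromosome 9 (120933400 to 120960507), had no peak in its body, as did 66.5% of the 2689 protein-coding genes of similar length. Its peak, 400 bp wide at 120915176 to 120915575, lay 18 kb upstream of the first start, within 1 kb of an end of the non-coding gene 1700020M21Rik. The next peak on the other side was 202 kb past the 3′ end, inside Ulk4, a kinase-like gene that lies 3.95 kb from Ctnnb1 and held 4 peaks, all outside the window. Ctnnb1 thus lay in a peak-free stretch of 247 kb, and 31.7% of protein-coding gene ends lay in stretches at least as long.

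Apc, the tumour suppressor gene of the destruction complex, spans 101.9 kb on chromosome 18 (34220297 to 34322190). Its single peak, 262 bp wide at 34259210 to 34259471, lay in the body, 39.0 kb from the low end and 62.8 kb from the high end. On either side the peak-free stretches were 179 and 279 kb long and reached beyond both ends of the gene. Stretches at least as long held 39.4% and 29.7% of protein-coding gene ends. Srp19, Reep5 and Pkd2l2, the protein-coding neighbours on the high side, held no peak. With 0.331 peaks per 100 kb (0.00839 to 1.85), Apc had the lowest density of the 9 genes, followed by Ctnnb1 at 0.44 (0.0111 to 2.45), and these intervals overlap almost fully. The medians of protein-coding genes were 1.09 on chromosome 18 (Apc) and 1.4 on chromosome 9 (Ctnnb1). A window with at most 1 peak was found for 29.5% of protein-coding genes, and one with at least 1 peak for 81.8%.

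Axin2, 33.0 kb on chromosome 11 (108917828 to 108950783), held 4 peaks in its window and 2 in its body. The first body peak, 241 bp at 108920328 to 108920568, spanned the start shown above, with its midpoint 99 bp downstream. The second was 417 bp wide and lay 5.1 kb after the start. Of 2436 protein-coding genes of similar length, 12.7% had 2 or more in the body. The flanking peaks lay 31 kb upstream of the start, in the non-coding gene Gm46298, and 61.1 kb beyond the 3′ end, in the non-coding gene Gm36876. Cep112, the only protein-coding neighbour, held 2 peaks, neither inside the window. The window density was 1.72 per 100 kb (0.468 to 4.40), below the median of 3.21 on its chromosome.

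Over the 9 genes, the median was 7 peaks per window against 3 for all protein-coding genes, and 2.18 against 1.42 per 100 kb. This comparison was matched neither for gene length nor for chromosome. On chromosome 11, with Tcf7 and Axin2, the medians of protein-coding genes were 7 and 3.21. For chromosome 19, with Tcf7l2 and Lrp5, they were 6 and 2.71. A peak in the body was present in 7 of the 9, against 29.5% of protein-coding genes, a share that rises with gene length. Of the 58 peaks, 22 (37.9%) lay in the bodies of the 9 genes, 13 (22.4%) in other protein-coding genes, 7 (12.1%) in other genes and 16 (27.6%) between genes. A peak inside several genes was counted only in the first of these classes. Each window was drawn around the body of 1 of the 9 genes, and the same shares were not computed for windows of other genes. The median width of the 58 peaks was 271.5 bp, against 262 bp for all peaks, with a range of 187 to 772 bp. Median widths per gene ran from 244 bp at Lef1 to 329.5 bp at Axin2 among the genes with at least 4 peaks.

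**Figure D4:**
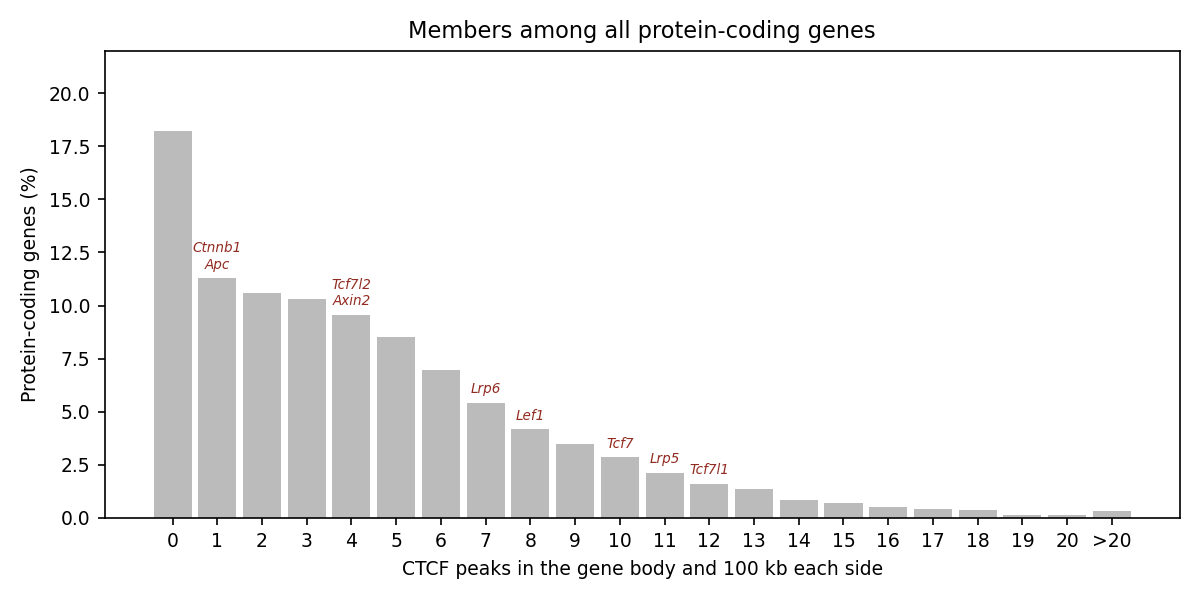
Share of all 21779 protein-coding genes (vertical axis, %) by the number of CTCF peaks in the body and 100 kb each side (horizontal axis), with each of the 9 genes named above the bar of its own count. Ctnnb1 and Apc stand at 1 peak, Tcf7l2 and Axin2 at 4, Lrp6 at 7, Lef1 at 8, Tcf7 at 10, Lrp5 at 11 and Tcf7l1 at 12.

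The rest of the pathway was read from a list of 93 further Wnt genes grouped by textbook role, all of which were in the gene table. Their median was 5 peaks per window and 1.80 per 100 kb. A peak in the body was present in 34 of 93 (36.6%) and a peak within 1 kb of an end in 9 (9.68%), beside 29.5% and 12.0% of protein-coding genes. The 19 Wnt ligand genes had a median of 7 peaks per window and the 16 nuclear cofactor genes also 7, the 18 cytoplasmic genes 6, and the 16 receptor genes and 24 genes of secreted or membrane modulators 3 each. Windows of neighbouring genes overlap, so that the 519 counts over the list came from 459 distinct peaks. Body peaks were present in 10 of 16 nuclear cofactor genes (62.5%), 8 of 18 cytoplasmic genes (44.4%), 6 of 19 ligand genes (31.6%), 5 of 16 receptor genes (31.2%) and 5 of 24 modulator genes (20.8%). Gene length, with which this share rises, was not matched between roles. By the 1 kb rule, 3 of 16 receptor genes (18.8%), 3 of 24 modulator genes (12.5%) and 2 of 19 ligand genes (10.5%) had an end peak. The same held for 1 of 16 nuclear cofactor genes (6.25%) and 0 of 18 cytoplasmic genes. These are small counts beside 12.0% of protein-coding genes, and differences between roles were not tested.

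Among ligand genes, Wnt1 and Wnt10b on chromosome 15 had most peaks, 19 and 17, but they lie 11.7 kb apart and drew on 19 distinct peaks, none of them in either body. Wnt3a followed with 12. Receptor genes were led by Lgr6, a receptor for R-spondins, with 11, Fzd2, a Frizzled receptor gene, with 10, and Ror1, which encodes a receptor tyrosine kinase for Wnt ligands, with 8, of which 3 were in the body. Modulators were led by Sost, the gene of the LRP5 and LRP6 inhibitor sclerostin, with 16, Notum, whose product removes the lipid from Wnt proteins, with 14, and Kremen2, a receptor of Dickkopf inhibitors, with 10. Cytoplasmic genes were led by Apc2, the paralog of Apc, with 15, and by Dvl2 and Fbxw11 with 10 each. Apc2 is short, at 22.3 kb, and held 1 peak in its body, as Apc did, so the remaining 14 lay in its flanks. Nuclear cofactor genes were led by Tle2 and Tle5, of the Groucho family, with 14 each from 14 distinct peaks, and by Pygo2, a co-activator gene, with 11. Wnt3a, Fzd2, Sost, Notum, Dvl2 and Fbxw11 all lie on chromosome 11, where the median protein-coding gene had 7 peaks in its window against 3 over all chromosomes.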

How the data were processed

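The authors deposited 1 list of CTCF peak intervals with both conditions merged, in 3 columns of chromosome, start and end. STAR, Picard and MACS2 and the builds mm10 and dm6 appear in the submitters' processing notes. Not given in the sources used here were versions, roles, peak thresholds and the way replicates were merged. The values are positions with no height, so no depth per sample, interval on reads or test between conditions could be had. Groups came from the sample titles.

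Starts were shifted to count from 1, a peak on the mitochondrial genome was dropped (22755 peaks remained), and a peak was placed by its midpoint. Genes were RefSeq protein-coding genes for GRCm38.p6 on the autosomes, X and Y, without those that the table places before 3 Mb (Y excepted). Promoter sequences were from the RefSeq table of the same build. Peaks were counted in the body and 100 kb each side, with Python 3.11.15, pandas 2.3.3, numpy 2.4.6, scipy 1.17.1 and matplotlib 3.10.9, and counting was checked on simulated data. Similar length means 80 to 125% of a gene's length. A peak-free stretch runs between the edges of neighbouring peaks.

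All 9 genes were named whatever their values, as was every protein-coding neighbour with a peak in its body or within 1 kb of an end in a window, and the 3 genes of each role of the Wnt list with most peaks. Neighbours without peaks and the non-coding genes that hold peaks were named after their values were seen. The members, pairs and lists were chosen with earlier results of these data known. Alternatives were flanks of 50 and 200 kb, any overlap, wide peaks, merged neighbours, other end distances and gene bodies alone. Leaving out other protein-coding bodies and using listed starts were added after seeing the data.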

Additional observations from a re-analysis of the deposited data

How the results depend on the processing

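The 9 windows held 42 peaks with flanks of 50 kb, 78 with 200 kb, 58 by any overlap, 57 with neighbours within 500 bp merged and 45 without other protein-coding bodies, against 58. With only peaks of median width or more they held 36, which is more than 1.5 times fewer and follows from keeping fewer peaks. Of 54 counts of single genes under these alternatives, 44 stayed within 1.5 times. Of the 36 TCF/LEF pair differences, none changed direction and 34 kept their side of the threshold. The number of TCF/LEF pairs past it was 0 in the 5 planned settings run for pairs (any overlap was not) and 2 without other protein-coding bodies, where Lrp5 exceeded Lrp6 by 4.62 peaks per 100 kb (adjusted exact p = 0.0323). Under the other alternatives the Lrp5 difference was 1.46 to 5.90 (adjusted exact p from 0.0646 to 0.488). End peaks were present at 2 genes, at 0 within 500 bp and at 3 within 2.5 kb (Lrp5 added) or at listed starts (Axin2 added), beside 12.0%, 7.82%, 21.2% and 8.22% of protein-coding genes. Tcf7l1 had most peaks with 100 kb flanks (12, Lrp5 11), but Lrp5 led with 50 kb (10 against 9), 200 kb (16 against 15) and wide peaks (9 against 6) and tied at 10 without other protein-coding bodies. The median of the Wnt list was 3 with flanks of 50 kb, 9 with 200 kb and 2 with wide peaks, beside 2, 6 and 1 for all protein-coding genes. No paired analysis was possible because the peak list carries no samples, and no replicate could be left out.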

Other observations

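Over all RefSeq promoter windows, 1179 of 32851 were overlapped by a CTCF peak. The word AGGNGGC, taken from the CTCF motif, occurred in 645 of these (54.7%) and in 28.4% of the 31672 windows without a peak. CTTTGNT from the TCF/LEF motif occurred in 14.7% and 18.7%, and CNATAAA from the CDX motif in 7.38% and 11%. Base composition may differ between these sets and was not matched. The Axin2 window and both Tcf7 windows belong to the overlapped set. Of these, AGGNGGC was present in that of the first Tcf7 start, outside the peak.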
